A study of Oryza sativa with 6 samples.

Results

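The genes described here lie at the starts of rice chromosomes 11 and 12, in a segment that the chromosomes share by duplication. Members were all genes of the deposited count table with identifiers from Os11g0100000 to Os11g0129999 or from Os12g0100000 to Os12g0129999 and at least 10 counts in 3 or more of the 6 root libraries. Of 426 identifiers in these ranges, 254 were members, of 36844 genes in the table. The chromosome 11 end held 120 members of 202 identifiers, and the chromosome 12 end held 134 of 224. The other 172 identifiers did not reach the minimum, and 81 of them had no counts in any library. Both ends were set against each other in the level of their members and in the difference between the rice cultivars 9311 and HHZ (Huanghuazhan). The libraries came from roots of 3 replicates of each cultivar. All plants of both cultivars were grown in hydroponic culture to 50 days after germination (DAG), kept for 2 days without NH4NO3 and returned for 3 h to the culture solution with 1 mM NH4NO3. The labels do not say whether a library pooled several plants.

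The segment is a known feature of rice chromosomes. The outer parts of the short arms of chromosomes 11 and 12 carry many of the same genes in the same order, and the copies have stayed unusually alike, since gene conversion can write the sequence of one copy over the other. Such copies are hard to count from short reads. The gene counter of STAR, which the authors used, leaves out a read that maps equally well to more than one place, so the counts of a gene with a near-identical copy rest on the reads that tell the copies apart. Reads of both cultivars were also aligned to one reference, IRGSP-1.0, the genome of the japonica cultivar Nipponbare. The counts below are therefore reads assigned to a reference copy, and the part that alignment plays in a difference was not tested. No table used here pairs the identifiers of the members with gene names, products or sequences, so the members are given by identifier, and no copy at one end was paired with a copy at the other.

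The libraries held between 16622441 and 22646162 counts. Levels are given as CPM, the unit of edgeR that scales counts by library size with its TMM factors, and 3 counts correspond to at most 0.175 CPM. CPM is not divided by gene length, so it compares a gene between libraries and not the amounts of transcript of different genes. The 6 pairs of replicates gave chi-square values of 22.3 to 98.6 for each degree of freedom, more than sampling noise gives, and the highest values involved HHZ replicate 3. The labels do not say that replicates came from separate cultures, so the p-values measure the spread between these libraries. A member is called when its adjusted p was under 0.05 in edgeR's quasi-likelihood test of 9311 against HHZ, adjusted over all 22554 genes tested. Log2 fold changes are of 9311 over HHZ and are given ± their standard error. In whole roots, fewer cells of a type and less RNA per cell cannot be told apart. Of the members, 252 were tested, 119 at the chromosome 11 end and 133 at the chromosome 12 end. Os11g0112050 and Os12g0102300 were too low for the test.

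The ends were alike in how many of their genes were counted and at what level. On chromosome 11, 59.4% of the identifiers in the range were members, at the chromosome 12 end 59.8%, and 61.3% of all genes passed the same minimum. The median of the members' mean level was 8.83 CPM at the chromosome 11 end and 7.95 CPM at the chromosome 12 end. The quartiles ran from 2.98 to 23.5 CPM in the former and from 3.02 to 24.9 CPM in the latter. The same identifier range at the starts of chromosomes 1 to 10 gave medians of 5.67 to 23.7 CPM. There were 10 members of the chromosome 11 end that had a mean under 1 CPM and 6 a mean of 100 CPM or more, against 10 and 8 at the chromosome 12 end. Among the members closest to the minimum, Os11g0112050 had 48 counts over the 6 libraries and Os12g0111750 had 49. Just outside it were Os11g0118600 with 75 counts and Os12g0105150 with 61, which were spread so that fewer than 3 libraries reached 10.

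With TMM factors the summed level of the chromosome 11 end was higher in 9311, while that of the chromosome 12 end overlapped between the cultivars. Members of the chromosome 11 end summed to 2701, 2664 and 2683 CPM in the HHZ libraries, listed here and below from replicate 1 to 3. The 9311 libraries gave 2938, 2955 and 2996 CPM. Every 9311 library lay above every HHZ library, and the mean of 2963 ± 29.5 CPM in 9311 was 10.5% above that of 2682 ± 18.4 CPM in HHZ (SD, n = 3 each). With counts scaled by library totals alone this ratio fell from 1.10 to 1.02 and the cultivars overlapped, at 2906, 2920 and 2573 in HHZ and 2735, 2714 and 3081 in 9311, and that of the chromosome 12 end turned from 1.04 to 0.96. At the chromosome 12 end the sums were 3248, 3261 and 3594 CPM in HHZ and 3424, 3556 and 3549 CPM in 9311. Here HHZ replicate 3 was the highest of the 6 libraries. The means were 3510 ± 74.0 CPM in 9311 and 3367 ± 196 CPM in HHZ (SD, n = 3 each). In each library the chromosome 11 end held fewer reads than the chromosome 12 end, with a ratio of 0.831, 0.817 and 0.747 in HHZ and 0.858, 0.831 and 0.844 in 9311. These sums run over chosen members and were not tested.

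**Figure D1:**
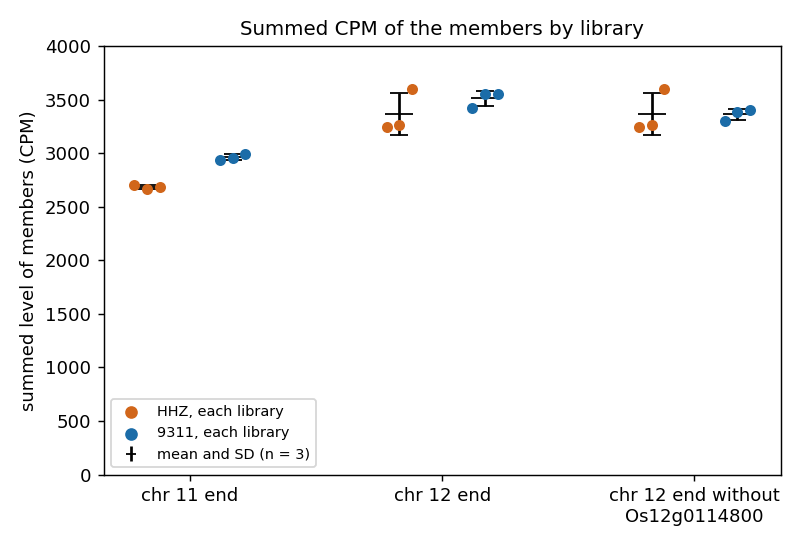
Summed CPM of the members of each end, and of the chromosome 12 end without Os12g0114800, in each library, with the mean and SD (n = 3) of each cultivar. With TMM factors, the 9311 libraries lie between 2938 and 2996 CPM at the chromosome 11 end, above all HHZ libraries, and at the chromosome 12 end the cultivars overlap.

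A few members carried a large part of these sums. The 5 highest members by the mean over all libraries took 34.8% of the chromosome 11 sum and 33.6% of the chromosome 12 sum. On chromosome 11 they were Os11g0127900, Os11g0115100, Os11g0104900, Os11g0127700 and Os11g0114600, and the lowest adjusted p among them was 0.0711 in edgeR. Os11g0104900 accounted for the largest part of the difference, with 193, 170 and 168 CPM in HHZ and 272, 266 and 222 CPM in 9311. Its libraries did not overlap between the cultivars, and its log2 fold change was 0.52 ± 0.128 (adjusted p = 0.0711 in edgeR). Os11g0114600 had 97.7, 112 and 124 CPM in HHZ and 169, 164 and 146 CPM in 9311, again without overlap (log2 fold change 0.52 ± 0.129, adjusted p = 0.0711 in edgeR). DESeq2 gave these genes adjusted p-values of 0.010 and 0.014. Os11g0127900, the highest member by the mean over the 6 libraries, was at 241, 257 and 235 CPM in HHZ and 247, 307 and 259 CPM in 9311, so that the cultivars overlapped. Os11g0127700 overlapped as well, at 110, 106 and 147 CPM in HHZ and 183, 180 and 140 CPM in 9311. Os11g0115100 was the least even of the 5, with 367, 279 and 89.9 CPM in HHZ and 183, 246 and 221 CPM in 9311.

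At the chromosome 12 end, Os12g0118800 was the highest member by the same mean and its libraries lay close together, with 377, 372 and 355 CPM in HHZ and 347, 352 and 370 CPM in 9311. The cultivars overlapped, and the log2 fold change was -0.05 ± 0.105 (adjusted p = 0.843 in edgeR). Os12g0111600 had 115, 95.6 and 315 CPM in HHZ and 375, 336 and 341 CPM in 9311. Its 9311 libraries all lay higher, but HHZ replicate 3 was close to them, and the log2 fold change of 1.00 ± 0.448 was not called (adjusted p = 0.265 in edgeR). Without HHZ replicate 3 it was 1.73 with an adjusted p of 0.00120 in edgeR. Os12g0124200 was at 203, 230 and 217 CPM in HHZ and 212, 278 and 232 CPM in 9311, with overlap. Os12g0128700 was at 162, 138 and 115 CPM in HHZ and 166, 212 and 164 CPM in 9311, without overlap but not called (adjusted p = 0.262 in edgeR). Of the members, Os12g0111600 differed most in the mean level, by 176 CPM, and Os12g0114800, a called member outside the 5 highest that is described below, came next with 147 CPM. Without Os12g0114800, a choice made after its values were seen, the sums averaged 3362 ± 52.7 CPM in 9311 and 3367 ± 196 CPM in HHZ (SD, n = 3 each).

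Of the members tested, edgeR called 11 of 119 at the chromosome 11 end and 7 of 133 at the chromosome 12 end, that is 9.24% and 5.26%, where 6.51% of all genes tested were called. The directions differed in count. Called members of the chromosome 11 end went mostly one way: 10 members were higher in 9311 and 1 was higher in HHZ, while at the chromosome 12 end 2 were higher in 9311 and 5 were higher in HHZ. With library totals alone in place of the TMM factors the former split was 10 and 3, the latter unaltered. Over all genes tested, 3.25% were called higher in 9311 and 3.26% higher in HHZ, and the shares at the chromosome 11 end were 8.40% and 0.840%, those at the chromosome 12 end 1.5% and 3.76%. DESeq2 called 24 of 120 members at the chromosome 11 end (17 higher in 9311 and 7 higher in HHZ) and 15 of 134 at the chromosome 12 end (5 and 10), where it called 11.2% of all genes with an adjusted p and 12.1% of those that passed the same minimum as the members. Without HHZ replicate 3, edgeR called 20 of 119 and 14 of 134, where it called 2724 of 22950 genes. Without any other single library it called 9 or 10 at the chromosome 11 end and 4 to 7 at the chromosome 12 end. All genes then gave 761 to 1141 called. Some members met the minimum only through the cultivar in which they were high. Of the chromosome 11 end, 8 members reached 10 counts in all 9311 libraries and in no HHZ library, and 1 did the reverse, while at the chromosome 12 end these numbers were 2 and 1. When 10 counts were asked of all 6 libraries, which leaves such genes out, edgeR kept 3 of 102 called at the chromosome 11 end, all higher in 9311. At the chromosome 12 end it kept 4 of 125, all higher in HHZ. Over all genes this filter left 563 of 20127 called, a share close to those of both ends.

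**Figure D2:**
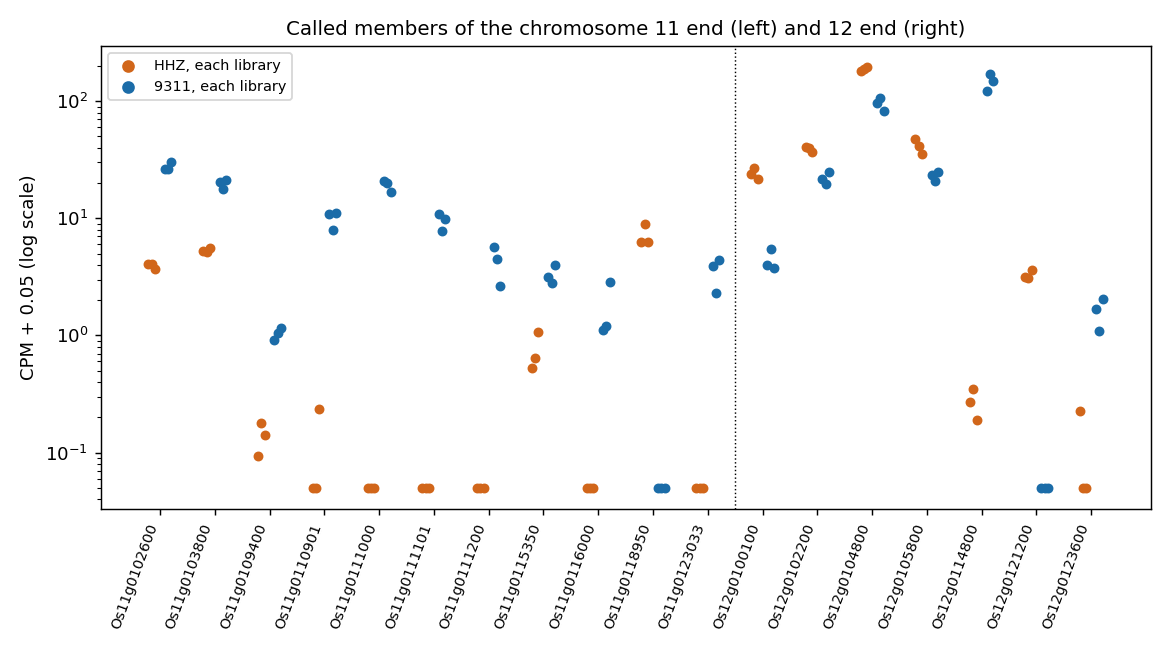
Level of the 18 called members in each library, as CPM plus 0.05 on a log scale, with HHZ and 9311 side by side. The 11 members of the chromosome 11 end stand left of the dotted line and the 7 of the chromosome 12 end right of it, and points at 0.05 are libraries with 0 counts.

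The clearest block at the chromosome 11 end was a run of 4 neighbouring members, Os11g0110901, Os11g0111000, Os11g0111101 and Os11g0111200, which were counted in 9311 and hardly at all in HHZ. They follow each other directly in the count table. Os11g0111000 had 0 counts in every HHZ library and 428, 379 and 288 counts in 9311, or 20.6, 19.9 and 16.8 CPM, which is at least 138-fold higher (adjusted p = 0.000385 in edgeR). Os11g0111101 had 0 counts in HHZ and 10.8, 7.78 and 9.83 CPM in 9311, at least 68.5-fold higher (adjusted p = 0.00101 in edgeR). Os11g0111200 had 0 counts in HHZ and 5.68, 4.47 and 2.57 CPM in 9311, at least 30.7-fold higher (adjusted p = 0.00609 in edgeR). Each of these folds sets the mean of 9311 against the level that 3 counts in an HHZ library would give, 0.138 CPM. Os11g0110901 had 0, 0 and 4 counts in HHZ and 224, 151 and 190 counts in 9311, a ratio of 169 with a 95% counting interval of 65.7 to 623 (adjusted p = 0.00311 in edgeR). The gene directly before them in the table, Os11g0110200, had 0 counts in all 6 libraries. The nearest members on either side did not share the pattern. Os11g0110100 had 148 to 181 counts in HHZ and 170 to 207 in 9311, and Os11g0111800 had 11 to 37 and 27 to 45. Whether the 4 genes overlap one another, or share reads between strands, could not be told from the counts, since the strand setting of the counting is not given in the sources used here.

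Other members of the chromosome 11 end were also counted in one cultivar and at 0 in the other. Os11g0123033 had 0 counts in HHZ and 3.85, 2.26 and 4.39 CPM in 9311, at least 25.3-fold higher (adjusted p = 0.00558 in edgeR). Os11g0116000 had 0 counts in HHZ and 22, 22 and 48 counts in 9311, at least 12.1-fold higher (adjusted p = 0.0221 in edgeR). Os11g0118950 was the 1 called member with the opposite direction, at 6.25, 8.94 and 6.26 CPM in HHZ and 0 counts in 9311, at least 40.7-fold higher in HHZ (adjusted p = 0.00177 in edgeR). A member counted as found in a single cultivar when that cultivar's libraries each held 30 counts or more and the other's no more than 3. By this rule 5 of the tested members of the chromosome 11 end (4.2%) and 1 of the chromosome 12 end (0.752%) were found in a single cultivar. The share was 1.18% of all genes tested. The same identifier range at the starts of the other chromosomes gave 0% to 5.38%, with a median of 0.299% and the highest share at chromosome 4. Of the 5 members, Os11g0111000, Os11g0111101 and Os11g0111200 belong to the run of neighbours described above.

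The rest of the called members of the chromosome 11 end were counted in both cultivars. Os11g0102600 was at 4.06, 4.00 and 3.64 CPM in HHZ and 26.1, 26.1 and 30.5 CPM in 9311, a log2 fold change of 2.82 ± 0.138 (adjusted p = 0.000183 in edgeR). Os11g0103800 was at 5.20, 5.11 and 5.48 CPM in HHZ and 20.6, 17.8 and 21.2 CPM in 9311, a log2 fold change of 1.91 ± 0.137 (adjusted p = 0.000594 in edgeR). The replicates of these genes lay close together compared with the distance between the cultivars. Os11g0115350 was lower, at 0.480, 0.596 and 1.01 CPM in HHZ and 3.08, 2.73 and 3.92 CPM in 9311 (log2 fold change 2.21, adjusted p = 0.0161 in edgeR). Os11g0109400 had 1, 3 and 2 counts in HHZ and 18, 19 and 19 in 9311, a ratio of 11.2 with a 95% counting interval of 4.82 to 31.7 (adjusted p = 0.00721 in edgeR). Os11g0115350 was no longer called when any one library other than HHZ replicate 3 was left out (adjusted p between 0.0521 and 0.0797), nor Os11g0116000 without HHZ replicate 2, 9311 replicate 1 or 9311 replicate 2 (0.0537 to 0.0751).

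At the chromosome 12 end, Os12g0114800 was the called member with the largest fold difference among those counted in all 6 libraries. It had 5, 7 and 3 counts in HHZ and 2542, 3276 and 2537 counts in 9311, or 0.218, 0.298 and 0.138 CPM against 122, 172 and 148 CPM. The log2 fold change was 9.35 ± 0.282 (adjusted p = 0.000127 in edgeR), and it was called in each of its 17 alternative fits. The other member called higher in 9311, Os12g0123600, was low, with 4, 0 and 0 counts in HHZ and 34, 20 and 34 counts in 9311, a ratio of 26.3 with a 95% counting interval of 9.93 to 98.8 (adjusted p = 0.0329 in edgeR). It was not called without HHZ replicate 2 or any one of the 9311 libraries (adjusted p between 0.0875 and 0.113). Os12g0121200 was detected in HHZ only, at 3.10, 3.07 and 3.59 CPM, with 0 counts in every 9311 library, at least 18.5-fold higher in HHZ (adjusted p = 0.00246 in edgeR).

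The remaining called members of the chromosome 12 end were higher in HHZ, counted well in every library, and all of them lay near its start, between Os12g0100100 and Os12g0105800. Os12g0100100, the first member of this end in the count table, was at 24.0, 27.1 and 21.8 CPM in HHZ and 3.95, 5.42 and 3.69 CPM in 9311, a log2 fold change of -2.48 ± 0.196 (adjusted p = 0.000892 in edgeR). Os12g0104800 was at 180, 190 and 196 CPM in HHZ and 97.3, 107 and 82.3 CPM in 9311, a log2 fold change of -0.98 ± 0.126 (adjusted p = 0.00662 in edgeR). The libraries of both genes stayed far apart between the cultivars. Os12g0102200 was at 40.4, 39.9 and 36.5 CPM in HHZ and 21.5, 19.7 and 24.8 CPM in 9311, and Os12g0105800 was at 47.3, 41.8 and 35.2 CPM in HHZ and 23.3, 20.7 and 25.0 CPM in 9311. Their log2 fold changes were -0.82 ± 0.126 (adjusted p = 0.0130 in edgeR) and -0.85 ± 0.148 (adjusted p = 0.0213 in edgeR). Os12g0102200 lost its call in 4 of the 6 fits that left out one library and Os12g0105800 in 5 of them, with adjusted p-values of 0.0501 to 0.0951. In every one of these fits they stayed lower in 9311.

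**Figure D3:**
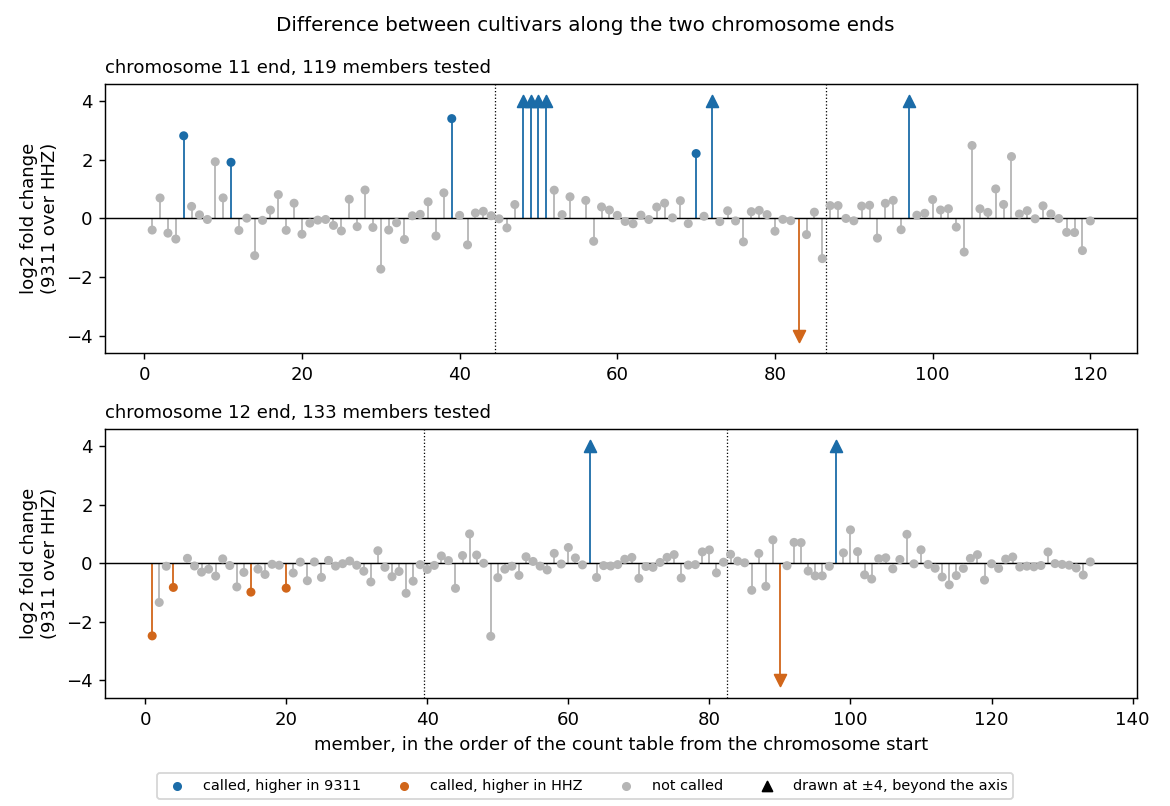
Log2 fold change of 9311 over HHZ for each tested member, in the order of the count table from the start of each chromosome, with called members in colour and values beyond 4 drawn as triangles at the edge. The dotted lines divide each end into its outer, middle and inner stretch, and the run of 4 members at the chromosome 11 end and the lower values at the start of the chromosome 12 end can be seen.

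The contrast in direction was not limited to the called members. Of those not called, 59 of 108 at the chromosome 11 end and 47 of 126 at the chromosome 12 end had a log2 fold change above 0. Among these the chromosome 11 end was nearer to an even split than the chromosome 12 end. Among all tested members of the chromosome 11 end, 69 of 119 had a log2 fold change above 0 (58.0%), and at the chromosome 12 end 49 of 133 (36.8%), against 49.1% of all genes. The median log2 fold change was 0.12 at the chromosome 11 end and -0.08 at the chromosome 12 end, and -0.01 over all genes. Over the members with 10 counts or more in all 6 libraries it was 0.10 and -0.08. With counts scaled by library totals alone, the median of all genes moved to -0.13, and those of the ends to -0.00 and -0.19, so that their place relative to all genes was kept. Members whose 9311 libraries all lay above HHZ numbered 30 at the chromosome 11 end (25.2%) and 12 at the chromosome 12 end (9.02%), where all genes gave 13.0%. The reverse held for 18 (15.1%) and 24 (18.0%), where all genes gave 14.3%. These counts include members that met the minimum in 1 cultivar only, whose libraries could hardly overlap. For 9311 they were 8 at the chromosome 11 end and 2 at the chromosome 12 end, and for HHZ 1 at each end. Not called were 108 members at the chromosome 11 end, with log2 fold changes from -1.73 to 2.49, and 126 at the chromosome 12 end, from -2.49 to 1.14. Most of these differences were small, with 73 and 104 members within 0.5 of 0. The median standard errors were 0.218 and 0.238, so a shift of that size in a single member could not be told from the spread between libraries.

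The same difference was resolved by library. For each tested member, the log2 of CPM plus 0.5 in a library was set against the member's mean over the 6 libraries, and the median was taken over the members of an end. The median of the chromosome 11 end minus that of the chromosome 12 end was -0.14, -0.11 and -0.11 in the HHZ libraries. The 9311 libraries gave 0.09, 0.12 and 0.06. This difference within a library does not depend on the scaling factor beyond the 0.5 that was added. Since each member is centred on its own mean, opposite signs in the cultivars follow from the centring, and the values show the spread of the difference over libraries and no more. Without the members that reached the minimum in one cultivar only, they were -0.10, -0.10 and -0.09 in HHZ and 0.04, 0.10 and 0.04 in 9311.

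The ends were not uniform along their length. Each was divided by identifier into an outer stretch (up to Os11g0109999 or Os12g0109999), a middle stretch (up to Os11g0119999 or Os12g0119999) and an inner stretch. In the outer stretch of the chromosome 12 end, 31 of 38 tested members had a log2 fold change below 0, with a median of -0.24. There, 0 members had all 9311 libraries above HHZ and 11 (28.9%) had all HHZ libraries above 9311, where all genes gave 13.0% and 14.3%. In this stretch 4 members (10.5%) were called, all of them higher in HHZ. Of all genes, 6.51% were called in either direction and 3.26% higher in HHZ. The median deviations in this stretch were 0.18, 0.20 and 0.14 in HHZ and -0.11, -0.14 and -0.10 in 9311. The middle and inner stretches of the chromosome 12 end had medians of -0.05 and -0.04, and their libraries overlapped between the cultivars. At the chromosome 11 end the order was different. The outer stretch had a median log2 fold change of -0.02 and was split evenly, with 22 of 44 members on each side of 0, while the middle and inner stretches had medians of 0.13 and 0.23. In the outer stretch the members nonetheless differed widely. Of 44, 12 (27.3%) had all 9311 libraries higher and 11 (25.0%) had all HHZ libraries higher, where all genes gave 13.0% and 14.3%. The middle stretch held 7 of the 11 called members, 4 of them the run of neighbours. This was 17.1% of its tested members, against 6.51% of all genes. All of the 7 but Os11g0115350 reached 10 counts in a single cultivar and owe their place among the members to it. Without such members the stretch held 35 tested, with Os11g0115350 the only called member. In the inner stretch, 22 of 34 members had a log2 fold change above 0, and the median deviations were -0.02, -0.09 and -0.08 in HHZ and 0.05, 0.20 and 0.16 in 9311.

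**Figure D4:**
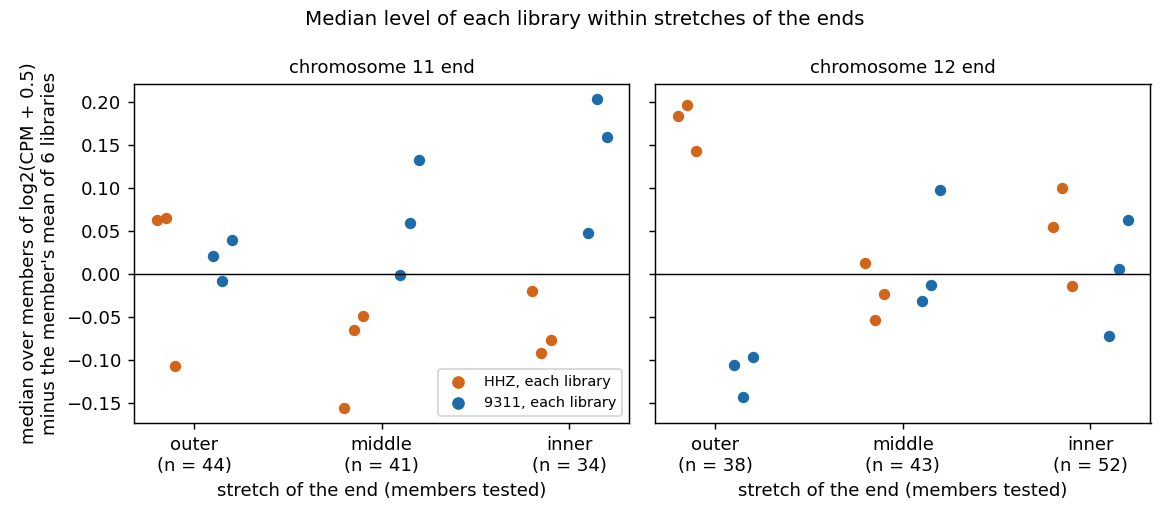
Median over the tested members of each stretch of the log2 of CPM plus 0.5 minus the member's mean over the 6 libraries, with 1 point per library. In the outer stretch of the chromosome 12 end the HHZ libraries lie between 0.14 and 0.20 and the 9311 libraries between -0.14 and -0.10, while in the inner stretch of the chromosome 11 end 9311 lies above HHZ.

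Both ends were set beside other stretches of the genome. The same identifier range at the starts of chromosomes 1 to 10 held 57 to 182 tested genes each, of which 29.5% to 57.4% had a log2 fold change above 0. Set against these were the 58.0% of the chromosome 11 end and the 36.8% of the chromosome 12 end. Genes that reached 10 counts in all libraries of one cultivar and in none of the other owe their sign to the cultivar that let them pass. Without them, a choice made after seeing the data, the share was 55.5% of 110 at the chromosome 11 end, below the 58.3% of chromosome 6, and 36.2% of 130 at the chromosome 12 end, below all but the 27.6% of chromosome 9. The median size of the log2 fold change was 0.41 at the chromosome 11 end and 0.22 at the chromosome 12 end, with 0.26 over all genes and 0.20 to 0.49 at the starts of chromosomes 1 to 10. The share of called genes there ran from 1.38% to 26.9%, which takes in both ends. In the stretches that follow the ends, from Os11g0130000 to Os11g0159999 and from Os12g0130000 to Os12g0159999, 50.3% of 155 and 44.5% of 137 tested genes had a log2 fold change above 0. There edgeR called 7 and 0, with 22 and 17 at an unadjusted p under 0.05 and 14 and 5 called by DESeq2. Of 22480 genes tested over the whole table with the same minimum, edgeR called 1461, and 4730 had an unadjusted p under 0.05 in its test. DESeq2 called 12.1%. The shares in both stretches were lower. Where the duplicated segment stops is not given in the sources used here, so the stretches that follow the ends may hold part of it. These are descriptions of the stretches, and the difference between them was not tested.

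**Figure D5:**
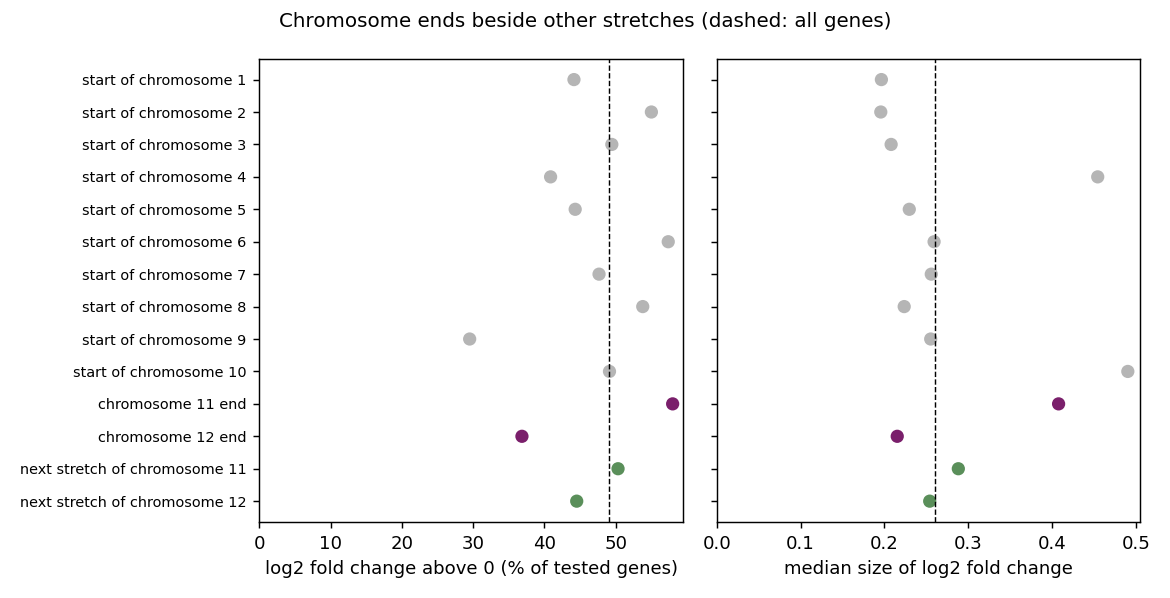
Share of tested genes with a log2 fold change above 0 (left) and median size of the log2 fold change (right) for the starts of chromosomes 1 to 10, both duplicated ends and the stretches that follow them, with all genes as a dashed line. The chromosome 11 end lies at 58.0% and 0.41, and the chromosome 12 end at 36.8% and 0.22.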

How the data were processed

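RNA sequencing of roots was carried out in 3 libraries each of 9311 and HHZ. The authors trimmed adaptors, mapped the reads with STAR and the Ensembl Plants gene models to IRGSP-1.0, and counted reads per gene. The deposited values are these raw counts, one column per library, neither normalized nor pooled. The paper's methods and the submitters' processing notes name different STAR versions, and neither gives the strand setting or the annotation release. From the counts, the cultivars were compared over the whole table by the quasi-likelihood test of edgeR 4.0.16, run in R 4.3.3 (cultivar as the only term, TMM factors, minimum count of 10 in filterByExpr, Benjamini-Hochberg adjustment, threshold 0.05). Standard errors were obtained from the log2 fold changes and the F statistics (absolute change over √F). DESeq2 1.42.0, limma-voom (limma 3.58.1), other normalizations, filters and thresholds, replicate numbers as blocks, other limits of the ends and the omission of libraries were the alternatives. The tests were also run on simulated counts with known, moderate fold changes. That simulation silenced no gene in a cultivar and made no library deviate from its replicates, so it does not bear on calls of that kind.

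The members, lists and tests were chosen with earlier results of these data known. The genes named are, for each end, the called members, the 5 highest members, those detected in one cultivar only and those next to the minimum. Other genes are named to place these and were chosen after their values were seen. Sums, medians and counts over members carry no test. Depth was 16622441 to 22646162 counts per library, and counting intervals (exact binomial, 95%) cover counting error only. A RefSeq gene table of 39387 genes held 1 identifier of the count table and 0 of the members, so the label of the tissue could not be checked against marker genes, and sequences and pairs of copies were not analysed here.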

Additional observations from a re-analysis of the deposited data

How the results depend on the processing

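The number of called members was 11 at the chromosome 11 end and 7 at the chromosome 12 end. DESeq2 gave 24 and 15, and omission of the third library of both cultivars gave 23 and 20. The whole table moved as well, from 1468 called of 22554 genes to 2885 of 25646 and 3676 of 22691. Asking 10 counts of all 6 libraries gave 3 and 4, and 563 of 20127 over all genes. An adjusted p under 0.01 and a log2 fold change of at least 1 each left 4 at the chromosome 12 end. Over all genes these left 635 and 1167 of 22554. Across the 6 fits without one library, the numbers were 9 to 20 and 4 to 14, the highest without HHZ replicate 3. All genes gave 761 to 2724 called, again the highest without that library. With limma-voom, robust dispersion, other normalizations, no filter or other limits of the ends, both numbers stayed within 1.5 times. Beyond the filter and the thresholds, the causes were not tested.

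Across genes, the correlations of the deviations of libraries with one replicate number were weak, at -0.135, 0.0734 and -0.154. These values do not settle whether replicates were handled in numbered sets. Fitting the replicate block gave 5 and 2 called members, where 470 of 22554 genes were called.

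The median log2 fold change of 0.12 at the chromosome 11 end and -0.08 at the chromosome 12 end became -0.0042 and -0.193 with library totals only, and 0.058 to 0.127 and -0.127 to -0.043 without one library. The 9311 to HHZ ratio of the summed level was 1.10 and 1.04. It was 1.02 and 0.96 with library totals only, 1.08 at the chromosome 11 end with upper quartile normalization, 1.08 there with identifiers up to Os11g0119999, and between 1.095 and 1.108 and between 1.024 and 1.069 without one library.

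Of 492 comparisons of named genes with an alternative, 433 kept their direction and side of the threshold, 40 lost and 8 gained the call, and 11 changed direction. The latter concern 2 genes that were not called. Os11g0115100, at -0.18, gave 0.042 in limma-voom, 0.025 with the replicate block and -0.589 to 0.231 without one library, where only the omission of HHZ replicate 1 turned it. Os12g0111750, at 0.00, gave -0.39 in limma-voom, -0.13 with the replicate block, -0.11 with library totals only, -0.021 under upper quartile scaling, -0.38 to 0.54 without one library and -0.25 without the third library of both cultivars. A member near 1 CPM rests on few counts in each library.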

Other observations

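Members with large differences among replicates were found at both ends, and several of them were high in HHZ replicate 3. The genes below are some of those with the largest coefficient of variation within a cultivar, of members with a mean of at least 10 CPM. Os12g0123700 had 4.89, 5.24 and 28.5 CPM in HHZ and 17.1, 7.63 and 24.7 CPM in 9311. Os11g0126900 at the other end had 11.3, 14.9 and 40.8 CPM in HHZ and 29.6, 15.9 and 31.5 CPM in 9311. In both genes HHZ replicate 3 was the highest library and the cultivars overlapped. Os12g0112000 had 39.4, 46.5 and 144 CPM in HHZ and 46.0, 41.2 and 112 CPM in 9311, so that its high libraries were the third of each cultivar. Os12g0126200 went the other way, with 35.8, 15.2 and 9.30 CPM in HHZ. So did Os11g0104400, with 31.8, 28.6 and 9.58 CPM in HHZ, and Os11g0115100, whose values are given above. These genes were chosen after their values were seen.

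HHZ replicate 3 was the highest of the 6 libraries in 20.2% of the tested members of the chromosome 11 end and 18.8% of those of the chromosome 12 end, against 19.5% of all genes tested. HHZ replicate 1 was the lowest library in 24.4% of the members of the chromosome 11 end, against 17.4% of all genes. It was the highest library in 26.3% of the members of the chromosome 12 end, against 16.9% of all genes. Members such as Os11g0111000, with no counts in any HHZ library, tie for the lowest library and were assigned to the first of the tied libraries, HHZ replicate 1. This rule raised the share of lowest values in HHZ replicate 1 at the chromosome 11 end, and that share says little about the library itself. The share over all genes includes such ties as well.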
